A study of Mus musculus with 24 samples.

Results

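The EGF family ligands and their ERBB receptors were followed in mouse small intestinal (SI) and colonic (COL) organoids that switched on BRAFV600E, p53R172H or both. The set held 10 genes of the 45706 in each count table, chosen by symbol and matched to the Ensembl identifiers of both tables: the receptors Egfr, Erbb2 and Erbb3 and the ligands Areg, Ereg, Hbegf, Tgfa, Btc, Epgn and Nrg1. Organoids are epithelial cultures grown in a gel from intestinal crypts. RNA sequencing covered 24 libraries in 12 groups of 2.

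All cultures came from C57BL/6N mice and carried Villin::CreERT2, a Cre recombinase that 4-hydroxytamoxifen (4-HT) activates and that the Villin promoter restricts to intestinal epithelium. The BRAF cultures were BraffloxV600E/+;Villin::CreERT2, the p53 cultures were Trp53LSL-R172H/+;Villin::CreERT2, and the BRAFp53 cultures carried both conditional alleles beside Villin::CreERT2. Each genotype was either induced with 4-HT (on) or given ethanol (off) for 24 h, at 0.5 µM in SI and 3.5 µM in COL, and RNA was taken on day 8 in SI and on day 3 in COL. Each genotype was 1 culture per tissue, so that the 2 libraries of a group were duplicates of 1 culture. With 1 exception the p-values measure the spread of such duplicates, not of animals. The exception is the comparison of non-induced tissues, which measures the spread between cultures of different genotypes. Genotype and culture cannot be told apart, nor can tissue, dose, day and medium. No library had 4-HT without a conditional allele, so the p53 cultures are the closest control for 4-HT without BRAFV600E. Per the study's methods the medium contained EGF.

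EGF family ligands are made as transmembrane precursors that proteases release from the cell surface. Binding brings ERBB receptors together in pairs and starts RAS, RAF, MEK and ERK signalling, in which BRAF is a kinase. EGFR binds the ligands of the amphiregulin and TGF-alpha type, ERBB3 binds neuregulins and has little kinase activity of its own, and ERBB2 has no known ligand and acts as a partner. In the intestine, epithelial and niche cells supply these ligands to the crypt base, where EGFR signalling drives proliferation.

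A group of 4 ligand genes, Epgn, Ereg, Areg and Btc, lies within 375.5 kb of chromosome 5 (GRCm38, GENCODE M21). Areg stands at chr5:91139599-91148432 on the plus strand, with Ereg at chr5:91074622-91093646 and Epgn at chr5:91027464-91035215 before it, and Btc at chr5:91357261-91402994 on the minus strand. The other ligands and the receptors lie elsewhere, Tgfa on chromosome 6, Hbegf on 18, Nrg1 on 8, Erbb3 on 10 and Egfr and Erbb2 on 11. RefSeq (GRCm38.p6) promoter windows, from 250 bases before to 50 after the start site, were searched for 6 of the 10 genes. Of these, 2 are shown: that of Areg, the most abundant ligand per kb of exonic length, and that of Egfr, the receptor whose response differed between the tissues. Capitals mark the CRE (TGACGTCA) in Areg and the ETS motif (CCGGAAG, here read on the other strand) in Egfr. The windows are chr5:91139349-91139648, plus strand, and chr11:16751953-16752252, plus strand.
Areg: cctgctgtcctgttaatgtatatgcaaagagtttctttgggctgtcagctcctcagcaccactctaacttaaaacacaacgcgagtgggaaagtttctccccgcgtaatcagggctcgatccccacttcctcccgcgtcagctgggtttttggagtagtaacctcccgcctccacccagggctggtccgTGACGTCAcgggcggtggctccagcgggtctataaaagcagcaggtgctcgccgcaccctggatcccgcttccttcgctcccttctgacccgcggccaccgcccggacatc
Egfr: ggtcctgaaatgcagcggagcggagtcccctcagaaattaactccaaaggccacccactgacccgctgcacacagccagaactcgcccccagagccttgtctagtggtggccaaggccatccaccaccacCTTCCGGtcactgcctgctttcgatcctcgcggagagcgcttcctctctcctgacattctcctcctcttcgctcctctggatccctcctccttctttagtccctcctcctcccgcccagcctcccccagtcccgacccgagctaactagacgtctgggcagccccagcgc
The first base of the CRE lay at position -61 from the Areg start and that of the ETS motif at -120 from the Egfr start. On both strands, 1.79% of 32851 promoter windows held the CRE, 8.86% held the ETS motif and 7.81% held the AP-1 motif TGANTCA. No other match of the 3 motifs was found in the 6 windows, which include those of Btc, Epgn, Erbb2 and Tgfa.

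Library totals ranged from 44.4 to 78.2 M counts. Levels are given in CPM, counts scaled to a library of 1e+06, and the detection floor of 3 counts was worth 0.0368 to 0.0878 CPM. Trp53, which the R172H allele brings under its own promoter once the stop cassette is removed, rose in COL p53, COL BRAFp53 and SI BRAFp53 organoids (log2 fold change 0.94, 0.94 and 0.52), and the 0.76 of SI p53 organoids did not pass the test (adjusted p = 0.194). In the BRAF arms, which have no Trp53 allele to switch on, Trp53 was lower after induction, with log2 fold changes of -0.44 (COL, adjusted p = 0.0332) and -0.62 (SI, 0.00351). Braf, whose counts cannot tell the mutant from the wild-type allele, did not pass the test in any arm. The labelled epithelium was checked against defining markers, of which all 7 were detected in every group: Epcam, Cdh1, Vil1 and 4 keratins summed to 9012 to 30074 CPM, 8 stromal genes to 0.658 to 3.86 CPM and 8 immune and endothelial genes to 0.105 to 11.2 CPM. The immune and endothelial sum was higher on than off in both SI cultures with BRAFV600E, from between 0.105 and 1.39 CPM to between 4.18 and 5.27 CPM in BRAF and from between 1.06 and 1.99 CPM to between 9.11 and 11.2 CPM in BRAFp53 organoids, against 2.08 to 3.17 CPM off and 1.61 to 1.96 CPM on in SI p53 organoids and at most 2.71 CPM in COL. These sums rest on few of the 8 genes, of which 4 had counts in induced SI BRAF and 3 in induced SI BRAFp53 organoids. In these groups 5 and 6 of the 8 genes were at 3 or fewer counts in every library. Ptprc, Cd3e, Cd79a, Adgre1 and Cdh5 had no counts in induced SI BRAFp53 organoids. The epithelial sum went from between 9745 and 10733 CPM off to between 23844 and 30074 CPM on in the COL BRAF and BRAFp53 cultures and from between 9012 and 10644 CPM to between 14179 and 22047 CPM in the SI ones. It was at 18760 to 18779 CPM off and 19211 to 27380 CPM on in COL p53 organoids and at 9361 to 9655 CPM in SI p53 organoids. The summed stem cell markers (Lgr5, Olfm4, Ascl2, Smoc2, Axin2) went from between 307 and 582 CPM to between 101 and 190 CPM in the COL BRAF and BRAFp53 cultures and from between 318 and 436 CPM to between 53.6 and 251 CPM in the SI ones, against 200 to 242 CPM off and 161 to 221 CPM on in COL p53 and 278 to 340 CPM off and 317 to 318 CPM on in SI p53 organoids. A sum of 7 Paneth cell genes (Lyz1, Mmp7, Itln1, Ang4 and 3 defensins) was higher in COL (808 to 2643 CPM) than in SI (192 to 633 CPM) and so did not single out the tissue that holds Paneth cells. In SI it went from between 623 and 633 CPM to between 212 and 242 CPM in BRAF, from between 223 and 277 CPM to between 299 and 433 CPM in BRAFp53 and from between 192 and 209 CPM to between 229 and 231 CPM in p53 organoids, and in COL from between 808 and 935 CPM to between 818 and 861 CPM in BRAF, from between 1560 and 2189 CPM to between 1357 and 1556 CPM in BRAFp53 and from between 1417 and 1702 CPM to between 1923 and 2643 CPM in p53 organoids. The part of cell composition in the changes of the ligands was not tested, and in bulk RNA a change in the number of cells of a type and a change of RNA per cell cannot be told apart.

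A single library stood apart from its culture. Xist, the RNA of the inactive X chromosome, was at 17.1 CPM in the first SI BRAF on library against 0.234 to 0.471 CPM in the other 3 SI BRAF libraries, at most 0.0395 CPM in COL and 115 to 166 CPM in the SI BRAFp53 and SI p53 libraries. The Y-linked Ddx3y was at 36.1 CPM in that library, 32.8 to 64.8 CPM in the other SI BRAF and the COL libraries and at most 0.065 CPM in the SI BRAFp53 and SI p53 libraries. The sex of the donor therefore differed between SI BRAF and the other SI cultures, and in 2 of 3 genotypes between SI and COL, whereas the organoids are described as cultures of 3 donor mice, 1 per genotype. Whether the library with Xist holds material of another culture was not tested. Where leaving out the library with Xist changed the call of a member, this is given. For some other member values of SI BRAF organoids the value without it is given too. Genes outside the set are given with the library only.

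Amphiregulin (Areg), an EGFR ligand of low affinity that regenerating epithelium is known to make, rose in each of the 4 arms with BRAFV600E. Areg was in COL BRAF organoids at 40.6 and 47.9 CPM off and at 257 and 250 CPM on. In COL BRAFp53 organoids it went from 31.7 and 43.4 CPM to 136 and 105 CPM. In SI BRAF organoids it went from 10.9 and 9.497 CPM to 49.6 and 75.3 CPM, and in SI BRAFp53 organoids from 6.12 and 5.11 CPM to 35.7 and 40.8 CPM. All on libraries of these arms lay above all off libraries of the same culture, with no overlap. The log2 fold changes were 2.51 ± 0.17 (SE, adjusted p = 7.26e-06), 1.68 ± 0.17 (8.73e-05), 2.57 ± 0.20 (1.05e-06, or 2.85 without the library with Xist) and 2.73 ± 0.20 (3.17e-06). In the p53 arm Areg went from 24.0 and 25.8 CPM to 40.5 and 39.4 CPM in COL, which did not pass the test over all genes (log2 fold change 0.66 ± 0.17, adjusted p = 0.187), and from 5.87 and 6.02 CPM to 5.99 and 4.66 CPM in SI. Ordered by level, COL BRAF on, COL BRAFp53 on, SI BRAF on and COL BRAF off were separated from each other by their libraries, whereas COL p53 on, SI BRAFp53 on and COL BRAFp53 off were not.

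**Figure D1:**
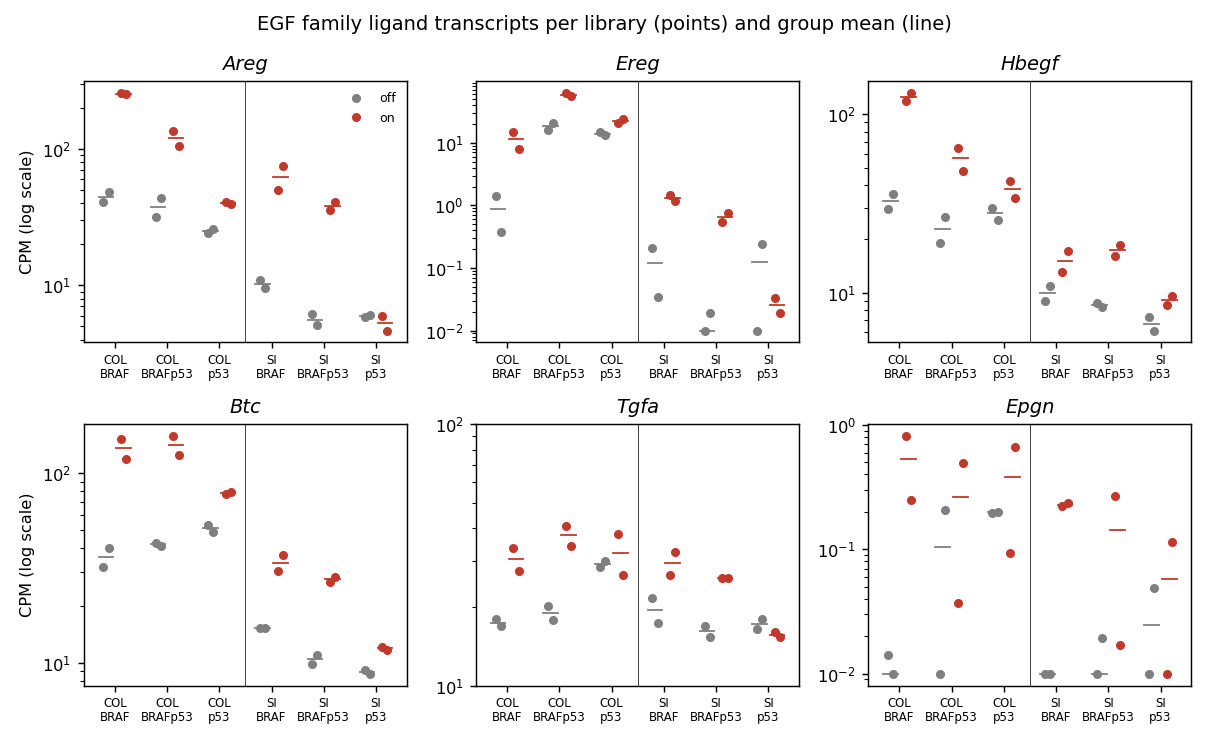
Transcript levels of 6 ligands in CPM (log scale) by culture, with grey points for off and red points for on libraries (2 each) and lines for group means; Nrg1 is not drawn. Values under 0.01 CPM, including 0, are drawn at 0.01; Areg in the 4 BRAFV600E arms shows red points above grey ones throughout.

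Betacellulin (Btc), which binds EGFR and ERBB4, showed the same direction in all 4 arms. Btc went in COL BRAF organoids from 32.1 and 40.2 CPM to 151 and 118 CPM and in COL BRAFp53 organoids from 42.8 and 41.1 CPM to 157 and 124 CPM. The SI levels of Btc went from 15.3 and 15.2 CPM to 30.5 and 36.8 CPM in BRAF organoids and, in BRAFp53 organoids, from 9.81 and 11.0 CPM to 26.6 and 28.4 CPM. On and off libraries did not overlap in any of these arms, and the induced SI BRAF libraries overlapped the non-induced COL BRAF libraries in level. The log2 fold changes were 1.89 ± 0.16 and 1.75 ± 0.16 in COL (adjusted p = 2.37e-05 and 5.39e-05) and 1.09 ± 0.14 and 1.36 ± 0.14 in SI (7.38e-05 and 3.89e-05). In COL p53 organoids Btc was at 53.3 and 48.7 CPM off and at 77.7 and 79.3 CPM on (log2 fold change 0.60, adjusted p = 0.202), and in SI p53 organoids at 9.14 and 8.73 CPM off and 12.1 and 11.7 CPM on (0.39, adjusted p = 0.777).

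Heparin-binding EGF-like growth factor (Hbegf), a membrane-anchored ligand of EGFR and ERBB4, rose in all 4 arms with BRAFV600E. Hbegf went in COL BRAF organoids from 29.5 and 35.6 CPM to 118 and 132 CPM and in COL BRAFp53 organoids from 18.9 and 26.5 CPM to 64.9 and 48.4 CPM. The SI levels of Hbegf went from 8.96 and 10.9 CPM to 13.1 and 17.1 CPM in BRAF organoids and, in BRAFp53 organoids, from 8.79 and 8.33 CPM to 16.1 and 18.6 CPM. The libraries were separated in all 4 arms, by a wide margin in COL and a narrow one in SI BRAF. The log2 fold changes were 1.94 ± 0.21 and 1.32 ± 0.20 in COL (adjusted p = 0.000101 and 0.00118) and 0.55 ± 0.19 and 0.98 ± 0.19 in SI (0.0377 and 0.00399). The SI BRAF value was 0.74 without the library with Xist. Its call was lost in 4 of 19 alternatives, namely the 4 libraries alone and the fits without SI BRAF off library 1 (0.41), without SI BRAF on library 2 (0.36) or without SI BRAFp53 off library 1. In the p53 arm they were 0.44 in COL and 0.41 in SI, and neither passed the test (adjusted p = 0.597 and 0.953).

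Transforming growth factor alpha (Tgfa), the ligand closest to EGF in its receptor use, rose less and in all 4 arms. Tgfa went in COL BRAF organoids from 17.9 and 16.9 CPM to 33.6 and 27.3 CPM and in COL BRAFp53 organoids from 20.2 and 17.8 CPM to 40.9 and 34.2 CPM. The SI levels of Tgfa went from 21.7 and 17.3 CPM to 26.6 and 32.4 CPM in BRAF organoids and, in BRAFp53 organoids, from 16.9 and 15.4 CPM to 25.8 and 25.9 CPM. None of the 4 arms had an on library at or under an off library. The log2 fold changes lay between 0.55 (SI BRAF, adjusted p = 0.0108) and 0.99 (COL BRAFp53, adjusted p = 0.00358). The SI BRAFp53 call rested on both libraries of both groups, since leaving out any of the 4 ended it, with the log2 fold change between 0.59 and 0.70 over all alternatives and the adjusted p up to 0.102. In COL BRAF organoids the call was lost without off library 2 or without on library 1, with the log2 fold change down to 0.64 and the adjusted p up to 0.0948, and in SI BRAF organoids without off library 2 or without on library 2, with the log2 fold change down to 0.41 and the adjusted p up to 0.126.

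Epiregulin (Ereg), a ligand of EGFR and ERBB4 encoded next to Areg, started from very different levels in the cultures. Ereg in COL BRAF organoids was at 1.39 and 0.374 CPM off and at 15.1 and 7.97 CPM on. In COL BRAFp53 organoids it was already at 16.1 and 20.7 CPM off and reached 62.7 and 55.5 CPM on. In COL p53 organoids it was at 14.8 and 13.2 CPM off and at 21.04 and 23.6 CPM on. The level of COL BRAF organoids after induction therefore overlapped with that of non-induced COL p53 organoids and lay under that of non-induced COL BRAFp53 organoids, although the log2 fold change was larger, at 3.69 ± 0.43 (adjusted p = 0.000186) against 1.68 ± 0.36 (0.0078). The latter call was lost without the first off library (adjusted p = 0.0542). The 0.65 of COL p53 organoids did not pass the test (adjusted p = 0.698).

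In SI the Ereg counts were few. SI BRAF organoids had 9 and 2 counts off and 65 and 40 counts on, a ratio of 12.1 at equal depth with a counting interval of 6.51 to 25.03, and SI BRAFp53 organoids had 0 and 1 counts off and 26 and 44 counts on, a ratio of 67.0 with an interval of 11.6 to 2684. Intervals are exact and cover counting error only. Both passed the test (adjusted p = 0.0437 and 0.031), and both calls were lost when single libraries of the arm were left out. For SI BRAF organoids the library with Xist was among these, with a log2 fold change of 3.25 without it against 3.42. That call was also lost without either SI BRAFp53 on library. SI p53 organoids had 0 and 15 counts off and 2 and 1 on, so that libraries of a single off group ranged from none to above all on libraries. The Ereg exons overlap the antisense gene Gm19610 by 141 bases. Gm19610 rose beside Ereg in COL BRAF organoids (log2 fold change 2.63, adjusted p = 0.011), and the use of strand in the counting is not given in the sources used here, so the reads of the overlap may belong to either.

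The last 2 ligands were at the limit of detection. Epigen (Epgn), an EGFR ligand best known from skin, had 1 and 0 counts off and 54 and 13 on in COL BRAF organoids, a ratio of 76.4 with a counting interval of 13.3 to 3063. In SI BRAF organoids it had 0 and 0 counts off and 10 and 8 on, which was at least 7.62-fold higher against a floor of 3 counts over the group. By edgeR it did not pass the test in either arm (adjusted p = 0.0599 and 0.0759). The COL BRAF value was called in 8 of 18 alternatives, among them DESeq2, the replicate block, the 4 libraries alone and no filter (adjusted p = 0.000265, the lowest), and the SI BRAF value in 0 of 16. In COL BRAFp53 organoids, with 0 and 15 counts off and 3 and 32 on (ratio 2.28, counting interval 1.21 to 4.49, adjusted p = 0.603), and in SI BRAFp53 organoids, with 0 and 1 off and 13 and 1 on (ratio 13.4, counting interval 2.04 to 567, adjusted p = 0.340), the libraries were not separated. Nor were they in COL p53 organoids, with 15 and 15 counts off and 7 and 51 on. Neuregulin 1 (Nrg1), the ERBB3 and ERBB4 ligand that intestinal stromal cells are known to supply, had 0 counts in 19 of 24 libraries and at most 4 in the others, and was therefore not tested.

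Counted together, the 5 ligands Areg, Ereg, Hbegf, Tgfa and Btc rose in each of the 4 BRAFV600E arms. Of 9 members tested, with Nrg1 left out, 6 rose in COL BRAF and 6 in COL BRAFp53 organoids, in both arms the 5 ligands and Egfr, where 19.9% (10.3% up, 9.61% down) and 17.7% (9.95% up, 7.76% down) of all 18972 genes tested were called. In SI BRAF organoids 6 rose and 1 fell, and in SI BRAFp53 organoids 5 rose, where 31.7% (17.5% up, 14.2% down) and 11.5% (6.98% up, 4.53% down) of 16856 genes were called. The median log2 fold change of the 6 tested ligands was 2.23, 1.502, 1.83 and 2.05 in these arms in this order, and that of all genes tested lay between -0.06 and -0.01. In the p53 arms 0 of 9 members were called in COL, where 0.142% of genes were called (0.0316% up, 0.111% down), and 0 of 9 in SI, where 0% were. At an unadjusted p under 0.05 there were 3 and 2 members in the p53 arms by edgeR. DESeq2 called 2 in COL, Areg and Btc, and 0 in SI, and limma-voom called 0 in both. The 5 ligands moved together across libraries: after subtraction of the mean of each culture, the correlations of their log2 levels over the 24 libraries lay between 0.84 and 0.95, a description in which all points share libraries and the on against off contrast. These 5 were taken because they were called in all 4 arms, so high values follow in part from the choice. Epgn, the other tested ligand, correlated with them at 0.45 to 0.71.

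**Figure D2:**
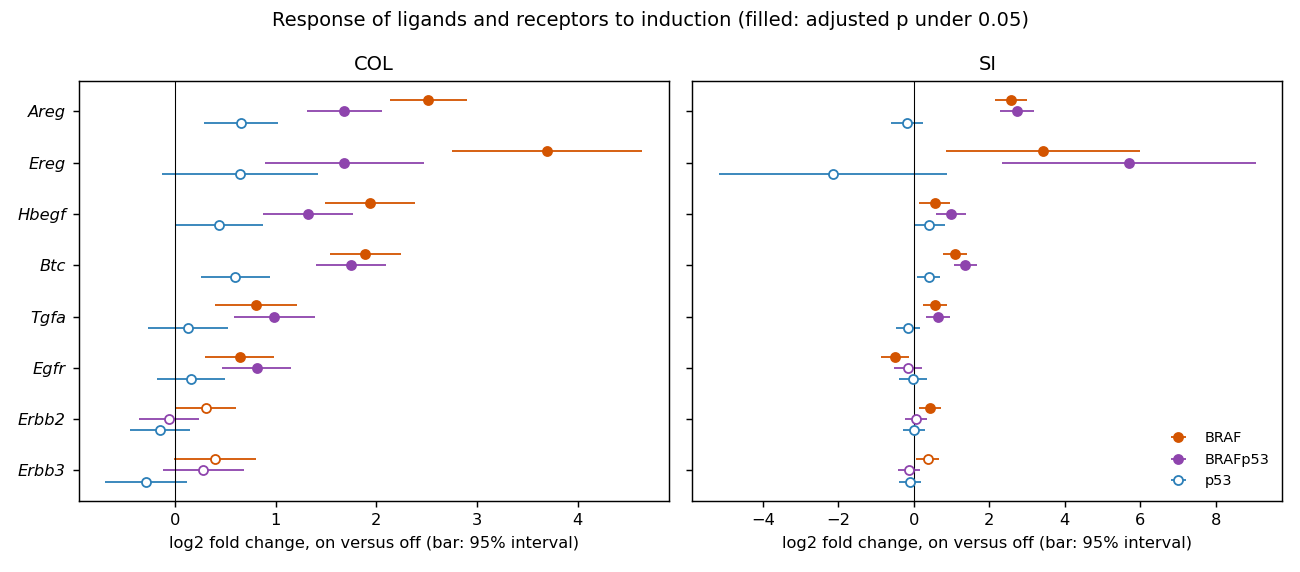
Log2 fold change of on against off with 95% intervals (horizontal axis) for 5 ligands and 3 receptors in COL (left) and SI (right), coloured by genotype and filled where the adjusted p is under 0.05. The scales of the panels differ; the 5 ligands are filled for BRAF and BRAFp53 in both tissues, and Egfr lies to the right of 0 in COL and to the left in SI.

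Set against exonic length, Areg was the main ligand in every group, a ranking that rests on this scaling. In CPM Areg stood above Btc in COL BRAF on organoids (254 against 135), for example, and under it in COL p53 off organoids (24.9 against 51.0). The sum of the 7 ligands, in CPM per kb of exonic length, was 49.7 and 58.4 in COL BRAF off and 279 and 266 in COL BRAF on libraries, a ratio of means of 5.04. It went from 46.5 and 58.2 to 181 and 143 in COL BRAFp53, from 17.6 and 16.1 to 54.9 and 79.1 in SI BRAF and from 11.6 and 10.8 to 42.8 and 47.8 in SI BRAFp53 organoids, ratios of 3.098, 3.98 and 4.05. It went from 45.9 and 45.3 to 70.3 and 67.2 in COL p53 and from 10.9 and 11.0 to 11.8 and 10.8 in SI p53 organoids. The induced SI BRAF libraries thus overlapped the non-induced COL libraries in summed ligand level. Areg made up 67.3% of the sum in COL BRAF off and 76.7% in COL BRAF on organoids, and 49.7% and 76.4% in SI BRAF organoids. Tgfa went the other way in share, from 17.8% to 6.89% in SI BRAF organoids, while its own level rose. Ereg held 8.52% of the sum in COL BRAFp53 off and 8.89% in COL BRAFp53 on organoids, 7.46% and 7.88% in COL p53 organoids and at most 1.02% in COL BRAF and all SI groups.

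**Figure D3:**
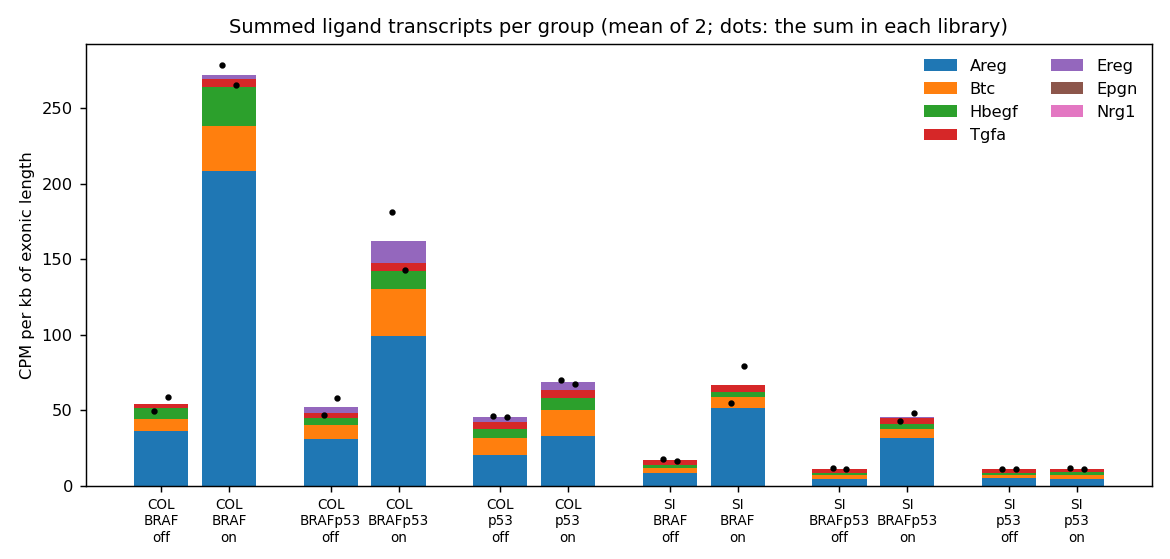
Stacked bars of the mean level of each ligand (CPM per kb of exonic length, from 0) in the 12 groups, with dots for the sum in each of the 2 libraries. Areg is the largest part of every bar, and the tallest bar is COL BRAF on, with 279 and 266 in its libraries.

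The receptor transcripts were summed in the same way. The sum of Egfr, Erbb2 and Erbb3 lay between 36.5 and 73.5 CPM per kb in all libraries, and the ratio of on to off was between 0.877 (COL p53) and 1.33 (SI BRAF). Erbb3 was the largest of the 3 in every group, with 51.2% to 69.6% of the sum, and Egfr the smallest, with 2.1% to 11.8%.

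Egfr, the receptor that binds all EGFR ligands of the set, rose in COL and fell in SI upon BRAFV600E alone. In COL BRAF organoids it went from 36.3 and 39.0 CPM to 64.3 and 53.4 CPM and in COL BRAFp53 organoids from 32.8 and 36.7 CPM to 67.7 and 54.2 CPM. In COL p53 organoids it was at 54.1 and 65.6 CPM already without induction and at 72.4 and 63.0 CPM on. The induced level of both BRAFV600E cultures thus overlapped with that of the non-induced p53 culture. The log2 fold changes were 0.64 ± 0.16 (adjusted p = 0.0131), 0.81 ± 0.16 (0.00428) and 0.16 ± 0.16 (0.887), and the first was not called without off library 1 or without on library 1 (adjusted p up to 0.125). In SI BRAF organoids Egfr went from 21.2 and 20.7 CPM to 17.9 and 12.5 CPM, without overlap (log2 fold change -0.50 ± 0.17, adjusted p = 0.0426). Without the library with Xist the value was -0.78 (adjusted p = 0.00477), and without the other on library the call was lost, as it was in 11 of 19 alternatives in all, among them RLE scaling and the 4 libraries alone, with values between -0.78 and -0.27. In SI BRAFp53 organoids Egfr was at 21.2 and 25.1 CPM off and 21.5 and 20.96 CPM on, with overlap (-0.16, adjusted p = 0.628).

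**Figure D4:**
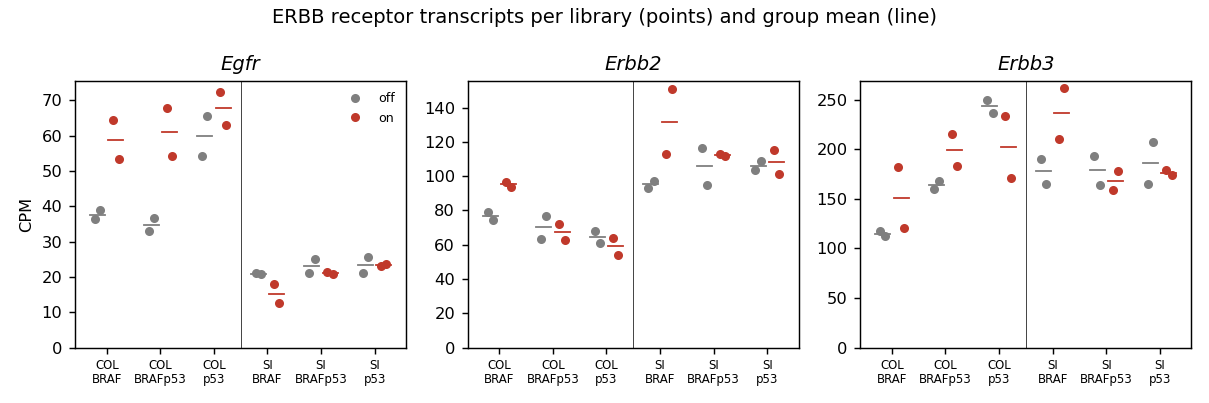
Transcript levels of the 3 receptors in CPM (linear axis from 0) by culture, with grey points for off and red points for on libraries (2 each) and lines for group means. Egfr on lies above off in COL BRAF and COL BRAFp53 and below it in SI BRAF, and Erbb3 points overlap in SI BRAFp53 and SI p53 and are separated in the other 4 cultures.

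Erbb2, the receptor without a ligand of its own, passed the test in 1 of the 6 arms, SI BRAF, where it rose from 93.0 and 97.4 CPM to 113 and 151 CPM (log2 fold change 0.42 ± 0.14, adjusted p = 0.0319). The value was 0.62 without the library with Xist and 0.21, not called, without the other on library. The call was lost in 4 of 19 alternatives, also with the 4 libraries alone and without either off library. In COL BRAF organoids Erbb2 was at 78.9 and 74.3 CPM off and 96.8 and 93.6 CPM on, separated but not called (0.31, adjusted p = 0.137). It was called there in 1 of 19 alternatives, the 4 libraries alone (adjusted p = 0.0341). In the 2 BRAFp53 arms the values were -0.06 and 0.05. Erbb3, the kinase-impaired partner of ERBB2, was not called in any arm by edgeR with the settings used for the values above. Its largest values were 0.39 in COL BRAF organoids (adjusted p = 0.169), where the on libraries stood at 182 and 120 CPM, and 0.36 in SI BRAF organoids (adjusted p = 0.0591), where they stood at 211 and 261 CPM against 190 and 165 CPM off. The latter lay at the threshold and was called in 7 of 19 alternatives, among them DESeq2 (0.40, adjusted p = 0.0203), limma-voom, RLE scaling, both other filters and the fit without the library with Xist (0.52, adjusted p = 0.0204). The former was called without a filter on low counts (adjusted p = 0.0291) and without on library 2 (0.64).

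The responses of the genotypes were compared as differences of fold changes within a tissue, and these comparisons share their libraries with the values above. The BRAF response exceeded the p53 response for 4 of 9 members in COL (4.51% of all genes called, 2.9% up and 1.61% down), with log2 differences of 1.86 for Areg (adjusted p = 0.00265), 3.05 for Ereg (0.0127), 1.497 for Hbegf (0.0156) and 1.29 for Btc (0.00951). The Hbegf call was lost in 2 of 18 alternatives, without COL BRAF off library 1 or without COL p53 on library 2 (adjusted p up to 0.0648). In SI it did so for 3 of 9 (17.7% called, 11.2% up and 6.5% down), with 2.75 for Areg (3.95e-05), 0.71 for Tgfa (0.0301) and 0.70 for Btc (0.0284). The 5.55 of Ereg, which rests on few counts, did not pass (adjusted p = 0.0526). It was called in 4 of 17 alternatives, no filter, DESeq2 and the fits without SI BRAF off library 1 or SI p53 off library 1, and was -0.11 without SI p53 off library 2. The Tgfa call was lost in 7 of 18 alternatives (adjusted p up to 0.134) and the Btc call in 8 of 18 (up to 0.122), most of them fits without a single SI BRAF or SI p53 library. For Hbegf in SI the difference was 0.15 (95% interval -0.43 to 0.72), so that the small rise in SI BRAF organoids was not separated from that in SI p53 organoids. Without the library with Xist 6 members passed in SI, the added ones being Egfr (-0.78), Erbb2 (0.60) and Erbb3 (0.60).

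The presence of p53R172H beside BRAFV600E did not change the response of any member past the test. The BRAFp53 response minus the BRAF response was called for 0 of 9 members in COL (0.907% of genes called, 0.532% up and 0.374% down) and 0 of 9 in SI (8.2% called, 1.93% up and 6.28% down). At an unadjusted p under 0.05 edgeR gave 2 in COL, Areg and Ereg, and 1 in SI, Erbb3, while DESeq2 called 1 in COL, Areg, and 0 in SI, and limma-voom called 0 in both. In COL the difference was -0.83 for Areg (95% interval -1.34 to -0.32, adjusted p = 0.0976) and -2.01 for Ereg (-3.21 to -0.81, adjusted p = 0.0906), intervals that do not include 0. DESeq2 gave -0.82 for Areg (adjusted p = 0.0150), and without a filter on low counts edgeR called both. In SI the difference for Areg was 0.16, with an interval of -0.43 to 0.75.

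Whether a response differed between COL and SI was tested over all 24 libraries at once. The BRAF response was larger in COL than in SI for 3 of 9 members (10.7% of 19673 genes called, 3.31% up and 7.4% down): Hbegf by 1.34 ± 0.27 (adjusted p = 0.00325), Egfr by 1.11 ± 0.24 (0.00447) and Btc by 0.76 ± 0.20 (0.0195) on the log2 scale. Hbegf and Egfr passed in all 30 alternatives, with values of 1.16 to 1.54 and 0.88 to 1.39, and Btc lost its call in 6, among them the fit without the library with Xist (0.63, adjusted p = 0.0875). For Areg the difference was -0.10, with an interval of -0.65 to 0.46. The BRAFp53 response differed for 2 of 9 members (3.52% called, 1.39% up and 2.13% down), with Egfr larger in COL by 0.94 ± 0.23 (adjusted p = 0.0306) and Areg smaller in COL, by -1.09 ± 0.27 (0.0299). For Hbegf it was 0.30, with an interval of -0.27 to 0.87 (adjusted p = 0.632). Each call was lost in 8 of 30 alternatives, not all of them the same. With the replicate number as a block 0 of the 2 remained, and without any single one of the 8 BRAFp53 libraries, or without COL BRAF on library 2, 0 or 1 did. The p53 response differed for 0 of 9 members (0.117% called, 0.0102% up and 0.107% down), by DESeq2 and limma-voom also 0, with 1 at an unadjusted p under 0.05.

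Non-induced COL organoids held more ligand transcript than non-induced SI organoids. With the 2 off libraries of a culture summed, 3 COL and 3 SI cultures were compared, and of 8 members tested 5 were higher and 1 lower in COL, where 29.6% of 17789 genes were called (17% up, 12.6% down). Areg was at 35.6 ± 9.81 CPM (mean and SD of 3 cultures) in COL and 7.25 ± 2.54 CPM in SI, Btc at 43.1 ± 7.48 and 11.5 ± 3.31 CPM and Hbegf at 27.7 ± 4.94 and 8.39 ± 1.60 CPM. No SI library reached the lowest COL library for these 3 genes, and the log2 differences were 2.33, 1.93 and 1.74 (adjusted p = 0.00342, 0.00301 and 0.00286), called in all 12 alternatives. Ereg was at 11.1 ± 9.13 CPM in COL, with 0.881 CPM in the BRAF culture, and at 0.0846 ± 0.0649 CPM in SI (adjusted p = 0.00872, and 0.112 by limma-voom). Tgfa, at 21.8 ± 6.36 and 17.6 ± 1.70 CPM, did not differ past the test (0.35, interval -0.18 to 0.88). Among the receptors Egfr was higher in COL (44.1 ± 13.7 against 22.5 ± 1.35 CPM, log2 difference 0.999, adjusted p = 0.0174) and Erbb2 lower (70.4 ± 6.02 against 102 ± 6.19 CPM, -0.51, adjusted p = 0.0188), and both calls were lost when SI cultures were left out. Erbb3 stood at 174 ± 64.9 and 181 ± 4.62 CPM, with a wide spread among the COL cultures. Medium and tissue cannot be told apart. Donor sex differed between SI and COL for BRAFp53 and p53 and not for BRAF, whose off cultures stood at 10.2 CPM in SI and 44.2 CPM in COL for Areg, 9.91 and 32.6 CPM for Hbegf and 15.3 and 36.2 CPM for Btc.

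Per kb of exonic length, the gene with the highest mean changed with induction in 2 of 6 cultures, SI BRAF and SI BRAFp53. In non-induced SI organoids of the 3 genotypes Erbb3 and Erbb2 stood above every ligand, at 29.5 to 30.9 and 18.3 to 20.4 CPM per kb against 4.62 to 8.38 for Areg. In those 2 cultures the mean of Areg stood first after induction, at 51.4 ± 15.0 CPM per kb in SI BRAF organoids against 39.3 ± 5.94 for Erbb3, and at 31.5 ± 2.96 against 28.0 ± 2.31 in SI BRAFp53 organoids. Areg lay above Erbb3 in each of the 4 induced libraries, at 40.8 against 35.05 and 62.0 against 43.5 CPM per kb in SI BRAF and at 29.4 against 26.4 and 33.5 against 29.6 CPM per kb in SI BRAFp53 organoids, while the ranges over libraries overlapped. In induced SI p53 organoids Erbb3 (29.3 CPM per kb) and Erbb2 (20.7) still led, with Areg at 4.39. In COL BRAF organoids Areg stood first in the off state as well, at 36.4 ± 4.29 CPM per kb against 19.1 ± 0.501 for Erbb3, whereas in COL p53 off organoids Erbb3 led with 40.5 ± 1.52 against 20.5 ± 1.06 for Areg. In COL BRAFp53 organoids the mean of Areg stood first in both states. In the first off library of that culture, however, Areg was at 26.1 and Erbb3 at 26.6 CPM per kb. In induced COL p53 organoids Erbb3 stood at 33.7 ± 7.32 and Areg at 32.9 ± 0.593 CPM per kb.

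Of 40 other genes of the pathway, 37 were tested in COL and 36 in SI. In COL BRAF organoids 6 rose and 3 fell, in COL BRAFp53 7 rose and 5 fell, in SI BRAF 5 rose and 5 fell and in SI BRAFp53 3 rose and 5 fell, with 0 in the p53 arms. Over all genes tested 19.9%, 17.7%, 31.7% and 11.5% were called in these 4 arms. The median log2 fold changes of the list were 0.21, -0.02, 0.07 and -0.07, and those of all genes were -0.01, -0.04, -0.06 and -0.03. Errfi1 (Mig6), a feedback inhibitor that binds the EGFR kinase domain, rose in each of the 4 arms, for example from 26.0 and 24.8 CPM to 74.4 and 84.3 CPM in SI BRAF organoids, with log2 fold changes of 1.42, 1.06, 1.60 and 1.36. Eps8, a substrate of EGFR that regulates actin, rose by 1.24 in COL BRAF and 1.69 in SI BRAF organoids. Its response was smaller in the SI BRAFp53 than in the SI BRAF culture (difference -0.84, adjusted p = 0.00618), which differed in donor sex as well. Pik3r1, the regulatory subunit of PI3 kinase, fell by 1.15 in COL BRAF and by 1.48 in COL BRAFp53 organoids. Rhbdl2, a membrane protease of the rhomboid family, rose by 1.02 in SI BRAF organoids, where Lrig1, a transmembrane inhibitor of ERBB receptors that marks stem cells, fell by 1.08. Socs5, an inhibitor of EGFR signalling, rose by 1.13 in COL BRAFp53, and Gab1, a docking protein, fell by 1.06 in SI BRAFp53 organoids.

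Of the family members outside the set, Nrg4 and Egf were tested. Nrg4, a ligand of ERBB4, stood at 22.05 to 31.9 CPM in all non-induced SI libraries and at 0.42 to 2.13 CPM in the non-induced COL libraries. It went from 31.9 and 22.05 CPM to 10.8 and 7.28 CPM in SI BRAF organoids and from 24.8 and 24.6 CPM to 3.44 and 3.08 CPM in SI BRAFp53 organoids, and on and off did not overlap. The log2 fold changes were -1.61 and -2.96, and the fall was deeper in the BRAFp53 than in the BRAF culture (difference -1.36 ± 0.31, adjusted p = 0.0166). These 2 SI cultures also differed in donor sex. In COL, where its level was low, Nrg4 was called in BRAFp53 organoids as well (-2.32, adjusted p = 0.0412). Its receptor gene Erbb4 was at 0 to 0.146 CPM in all libraries. Egf was at 0 to 2.36 CPM and fell in COL BRAFp53 organoids, from 0.979 and 2.36 CPM to 0.196 and 0.17 CPM (-3.18, adjusted p = 0.00251).

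Genes around the ligand group on chromosome 5 were read from the same fits. Of the genes that start within 500 kb of Areg, Ereg, Btc or Epgn, Parm1, a mucin-like membrane protein beyond Btc, rose in all 4 BRAFV600E arms, by 0.67, 1.04, 0.74 and 0.63, less than Areg and Btc. Gm19619, a lincRNA between Areg and Btc, was called in SI BRAF organoids (2.56, adjusted p = 0.0416) and not in the other 3 arms (1.08 to 2.18). On the side of Epgn, Mthfd2l, a mitochondrial folate enzyme, rose in COL BRAF organoids (0.71, adjusted p = 0.0357) and not in the other 3 arms (-0.40 to -0.06). Farther out Cxcl1, a neutrophil-attracting chemokine, rose in COL (2.02 and 1.94) and was at -0.63 and -0.74 in SI, where it was not called. Of the chemokine genes beside it Cxcl5 was called in COL BRAF (2.56, adjusted p = 0.0383) and Cxcl2 in COL BRAFp53 organoids (1.78, adjusted p = 0.0144), and neither was tested in SI. Rassf6 at the end of the region was not called in any arm (0.01 to 0.50).

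**Figure D5:**
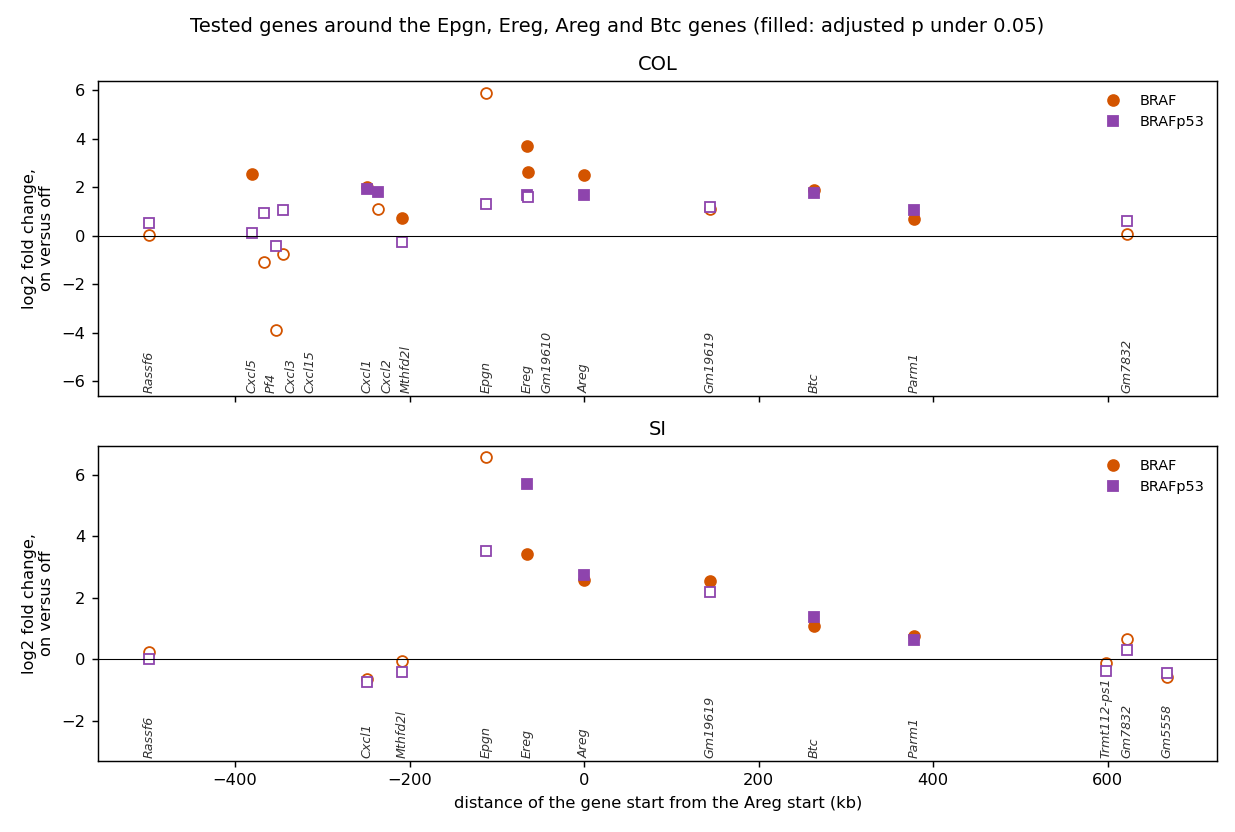
Log2 fold change of on against off for tested genes, placed by the distance of their start from that of Areg in kb, in COL (top) and SI (bottom), with circles for BRAF and squares for BRAFp53, filled where the adjusted p is under 0.05. Labels of crowded genes are shifted to the right; Ereg, Areg, Btc and Parm1 are filled for both genotypes in both tissues, and Epgn is open.

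The genes most like each member were ranked by the correlation of log2(CPM + 0.5) over the 24 libraries after subtraction of culture means, among 8075 genes, and all points share libraries and treatment. For Areg they were Ugcg (0.99), S100a11 (0.98) and Dusp5 (0.98), for Btc Tnfrsf12a (0.97), Krt23 (0.97) and Cnn2 (0.97), and for Hbegf Bcl3 (0.97), Cnn2 (0.95) and Krt18 (0.95). For Tgfa they were Rhpn2, Krt8 and F3 (0.95 to 0.96) and for Ereg Smim15, Ccdc71l and Tnfrsf10b (0.94). Dusp5 encodes a phosphatase of nuclear ERK, and Krt8 and Krt18 are keratins of simple epithelium that also belong to the epithelial sum. The receptors had lower values, with Pdlim1, Usp46 and Esrp2 for Egfr (0.87 to 0.90), Abr, Cdc42bpa and Nedd9 for Erbb2 (0.86 to 0.88) and Gak, Susd6 and Zfyve1 for Erbb3 (0.83 to 0.84). For Epgn, with few counts, they were Mrpl54, Ttc1 and Mcur1 (0.76 to 0.79).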

How the data were processed

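Gene counts of 24 libraries were deposited as 2 tables, 1 per tissue, each with 45706 Ensembl identifiers. Per the submitters' processing notes the authors trimmed reads with Trimmomatic 0.36 and aligned them with STAR 2.5.2b; the methods name mm10, the labels mm9 and mm10, and the annotation and use of strand in counting are not given in the sources used here. The deposited values are raw counts, 1 value per gene and library. Symbols, positions and exonic lengths came from GENCODE M21 (GRCm38), which matched 45143 identifiers and all 10 members.

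The counts were tested with edgeR 4.0.16 (quasi-likelihood, R 4.3.3), TMM scaling and filterByExpr, in 1 fit of 12 libraries per tissue and a joint fit of 24, with Benjamini-Hochberg adjustment over all genes tested and a threshold of 0.05. Non-induced COL and SI cultures were compared with the 2 off libraries of each culture summed. Levels are CPM by joint TMM scaling. Alternatives were RLE scaling, no filter, limma-voom (limma 3.58.1), DESeq2 1.42.0, a filter of 10 counts that all libraries had to reach, the replicate number as a block, the 4 libraries of a culture alone, and leaving out libraries. Same-numbered on and off libraries did not deviate together (correlations of -0.0605 to 0.0843), so the numbers were not taken as pairs. Duplicates differed by more than sampling noise (chi-square per degree of freedom 20.5 to 92.4). Scripts were tested on simulated counts. The members and gene lists were chosen with earlier results of these data known. The genes named were all members, called pathway genes with a log2 fold change of at least 1 and an average log2 CPM of at least 3 (with Erbb4, Egf and Errfi1 always), the 3 most alike genes per member, and, of the neighbours within 500 kb, those called in an arm with BRAFV600E and Rassf6.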

Additional observations from a re-analysis of the deposited data

Results flagged for a closer look

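Differences between responses that passed their own test are collected here, and no explanation was tested. In COL the BRAF response exceeded the p53 response by 1.86 on the log2 scale for Areg, 3.05 for Ereg, 1.497 for Hbegf and 1.29 for Btc, of which the Hbegf call was lost in 2 of 18 alternatives. In SI it did so by 2.75 for Areg, 0.71 for Tgfa and 0.70 for Btc, of which the Tgfa and Btc calls were lost in 7 and 8 of 18 alternatives. The BRAF response was larger in COL than in SI by 1.11 for Egfr, 1.34 for Hbegf and 0.76 for Btc, of which the Btc call was lost in 6 of 30 alternatives. The BRAFp53 response was larger in COL by 0.94 for Egfr and differed by -1.09 for Areg, smaller in COL, and each of these calls was lost in 8 of 30 alternatives, the replicate block included. Groups of 2 libraries are too small for a test of single outlying libraries.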

How the results depend on the processing

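Of the 24 called arm values of the members, 415 of 454 alternative values kept their call and 39 lost it, and Areg and Btc kept all 76 each. With no filter on low counts 3 members were called in COL p53, 2 in the COL BRAFp53 minus BRAF difference and 2 in the p53 COL minus SI difference, against 0 each. DESeq2 called 2 and 1 in the first and second of these. The 4 libraries alone gave 4 in SI BRAF, against 7. In the BRAFp53 COL minus SI difference limma-voom gave 1 and the replicate block 0, against 2. The block also ended the calls of Btc in the BRAF COL minus SI difference and of Tgfa in the SI BRAF minus p53 difference.

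Leaving out single libraries gave 4 to 7 called members in COL BRAF, 5 to 6 in COL BRAFp53, 0 to 1 in the COL BRAFp53 minus BRAF difference, 3 to 5 in the COL BRAF minus p53 difference, 2 to 7 in SI BRAF, 3 to 5 in SI BRAFp53, 1 to 6 in the SI BRAF minus p53 difference, and 2 to 3 in the BRAF and 0 to 2 in the BRAFp53 COL minus SI difference. Leaving out both off libraries of a culture gave 4 to 7 between non-induced tissues. The lowest SI BRAF count, 2, came without on library 2. Uncalled values changed sign when single libraries were left out. Erbb2 ranged from -0.1914 to 0.0943 in COL BRAFp53 (positive without off or on library 2) and from -0.073 (without off library 2) to 0.1937 in SI BRAFp53. Epgn ranged from -1.4446 (without on library 2) to 7.1994 in COL BRAFp53. Ereg ranged from -0.1134 to 7.2137 in the SI BRAF minus p53 difference and from -3.1327 to 3.7904 in the p53 COL minus SI difference, negative in both without SI p53 off library 2. The causes were not tested. Duplicates of 1 culture limit the p-values to the spread of such libraries, except between non-induced tissues, where cultures were compared. Epgn, Nrg1 and Ereg in SI are limited by counts.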
